A study of Sus scrofa with 16 samples.

Results

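The genes described here are 40 hypoxia-inducible and glycolysis genes, followed in the hippocampus of preterm pigs with or without necrotizing enterocolitis (NEC), an inflammatory disease of the immature gut. They were chosen by symbol, as the subunits and regulators of hypoxia-inducible factor (HIF), its target genes outside glycolysis, the glycolytic enzymes, and the genes that handle glucose, lactate and pyruvate. Pig Ensembl gene IDs paired 30 of the 40 symbols with an entry of the deposited expression table, and each of the 30 had 1 entry and a mean of at least 0.5 FPKM (fragments per kilobase of transcript, scaled to the mapped fragments of each library) over the 16 pigs, among 13590 entries that passed the same filter. The HIF set held 13 of these genes and the glycolysis set 17. BNIP3, DDIT4, CA9, MXI1, BHLHE40, ALDOA, ALDOC, SLC2A3, LDHB and SLC16A1 were not matched and were not analysed here.

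RNA came from the intact left hippocampus of 16 crossbred piglets (Danish landrace x Large White x Duroc) delivered preterm by cesarean section, kept in incubators and tube-fed rising amounts of human donor milk with falling parenteral nutrition for just over a week. No genetic change was made and NEC arose spontaneously under this feeding, so pigs were grouped by what was found in the gut and not by an assigned treatment. The groups were pigs without lesions (No NEC, labelled noNEC, n = 5, with 2 females and 3 males), pigs with severe lesions in the colon alone (Co-NEC, labelled coNEC, n = 5, with 2 females and 3 males), and pigs with severe lesions in the small intestine (Si-NEC, labelled siNEC, n = 6, with 3 of each sex), which may have had colon lesions as well. Pigs are named by their labels, such as 230-15. The labels do not give litters, so p-values measure the spread between these pigs.

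HIF is a transcription factor made of an oxygen-regulated alpha subunit, HIF-1 alpha (HIF1A) or HIF-2 alpha (EPAS1), and a constant partner. Prolyl hydroxylases use oxygen to mark the alpha subunit for destruction, so it is mainly the protein, more than the mRNA, that follows oxygen, and the mRNA of target genes is the usual readout. Its targets promote vessel growth, mitophagy, collagen processing and a shift of energy metabolism towards glycolysis, in which glucose is split to pyruvate and, when pyruvate does not enter the mitochondria, reduced to lactate. Brain tissue runs on glucose at all times, so glycolytic transcripts are abundant there without any lack of oxygen.

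The sum of FPKM per pig ranged from 544629 to 864931, with the highest sums in pig 230-15 (No NEC, 864931) and pig 223-15 (Si-NEC, 823320), while the other pigs reached at most 645197. Both of these pigs stood apart across the table as well, since 34.8% of all entries lay above the range of the other 14 pigs in 230-15 and 32.2% in 223-15. The main results that rest on them are given with and without them. Among markers of the tissue, the 6 neuronal genes matched summed to between 1839 and 2899 FPKM in every pig, and the 5 astrocyte genes matched to between 905 and 1542 FPKM, although ALDH1L1 among the latter was listed at 0 in all pigs. In whole tissue, fewer cells of a type and less RNA per cell cannot be told apart.

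Levels of the 30 genes spanned 3 orders of magnitude. FPKM is scaled by transcript length, so levels can be set side by side between genes. The glycolytic enzymes held the first places. GAPDH, which oxidizes glyceraldehyde-3-phosphate, had the highest level with a mean of 2853 ± 1064 FPKM (SD, n = 16), followed by the pyruvate kinase PKM with 490 ± 91.1 FPKM and the triosephosphate isomerase TPI1 with 467 ± 132 FPKM. PGAM1, ENO2, GPI, ENO1, LDHA, PGK1, HK1, PFKP and PFKM followed between 337 and 107 FPKM. The mean levels of PGAM1 (337 ± 24.3 FPKM), a mutase late in the pathway, and ENO2 (335 ± 30.8 FPKM), the neuronal enolase, lay closer together than their SDs, as did those of PFKP (110 ± 15.2 FPKM) and PFKM (107 ± 5.94 FPKM), which are isoforms of phosphofructokinase.

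The HIF set lay lower. Its most abundant gene was BNIP3L, a mitophagy receptor, with 62.5 ± 12.5 FPKM (SD, n = 16), and HIF1A (22.8 ± 4.54 FPKM) and EPAS1 (22.5 ± 4.40 FPKM) were within their SDs of each other. The prolyl hydroxylase EGLN1 was at 28.4 ± 2.28 FPKM and its relative EGLN3 at 4.07 ± 0.920 FPKM. The lowest levels belonged to CA12, a carbonic anhydrase (1.74 ± 0.398 FPKM), LOX, a lysyl oxidase that cross-links collagen (1.66 ± 0.315 FPKM), and ANKRD37, a small HIF target (1.47 ± 0.643 FPKM). HK2, the hexokinase that HIF induces, was at 2.60 ± 0.821 FPKM beside 141 ± 14.0 FPKM for HK1, the main hexokinase of brain. Several glycolytic genes, GAPDH among them, have processed copies elsewhere in mammalian genomes, and how reads were shared between such copies is not given in the sources used here, so their levels are uncertain in that respect.

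GAPDH was also one of the 3 reference genes to which the study scaled its separate quantitative PCR, and its primers are shown because its RNA-seq level varied so widely between pigs. Both are printed from 5′ to 3′ in lower case, with nothing marked.
GAPDH forward: acccagaagactgtggatgg
GAPDH reverse: aagcagggatgatgttctgg
In the No NEC pigs GAPDH was at 2371, 2438, 2440, 2954 and 6573 FPKM, in the Co-NEC pigs at 2189, 2362, 2386, 2447 and 2469 FPKM, and in the Si-NEC pigs between 2321 and 3791 FPKM with a median of 2707 FPKM. The 6573 FPKM belonged to pig 230-15 and the 3791 FPKM to pig 223-15, the remaining 14 pigs all lying at or below 2983 FPKM. All groups overlapped, although 5 Si-NEC pigs exceeded the highest Co-NEC value of 2469 FPKM.

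Pigs 230-15 and 223-15 stood apart in the glycolysis set, as they did across all entries. In pig 230-15, 11 of the 17 genes (64.7%) were above the range of the other 14 pigs and 1 (5.88%) was below, against 34.8% and 23.2% of all entries. In pig 223-15, 7 of the 17 (41.2%) were above that range and 1 (5.88%) below, against 32.2% and 18.5% of all entries. All 7 that were above in 223-15 were above in 230-15 too (41.2% of the set), against 23.2% of all entries above in both. These were HK1, GPI, TPI1, GAPDH, PGK1, PKM and LDHA. The sizes ran from 1.36 times the median of the 14 pigs for HK1 to 2.69 times for GAPDH in pig 230-15, and from 1.14 times for HK1 to 1.66 times for PGK1 in pig 223-15. ENO1 (319 FPKM), ENO2 (391 FPKM) and PGAM1 (374 FPKM) were above that range in pig 230-15 and within it in 223-15. PDK1 was below it in pig 230-15 (5.09 FPKM, 0.547 times the median) and within it in 223-15. HK2, PFKP, PFKM and SLC16A3 lay inside the range in both pigs. PFKP was at 1.03 and 1.04 times, PFKM at 0.971 and 0.987 times and SLC16A3, a lactate exporter, at 1.04 and 1.05 times the median in 230-15 and 223-15. PFKL, another phosphofructokinase isoform, was above the range in pig 230-15 (28.2 FPKM, 1.37 times the median) and within it in 223-15. PFKFB3, which makes the activator of phosphofructokinase, was below that range in pig 223-15 (6.28 FPKM, 0.519 times the median).

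**Figure D1:**
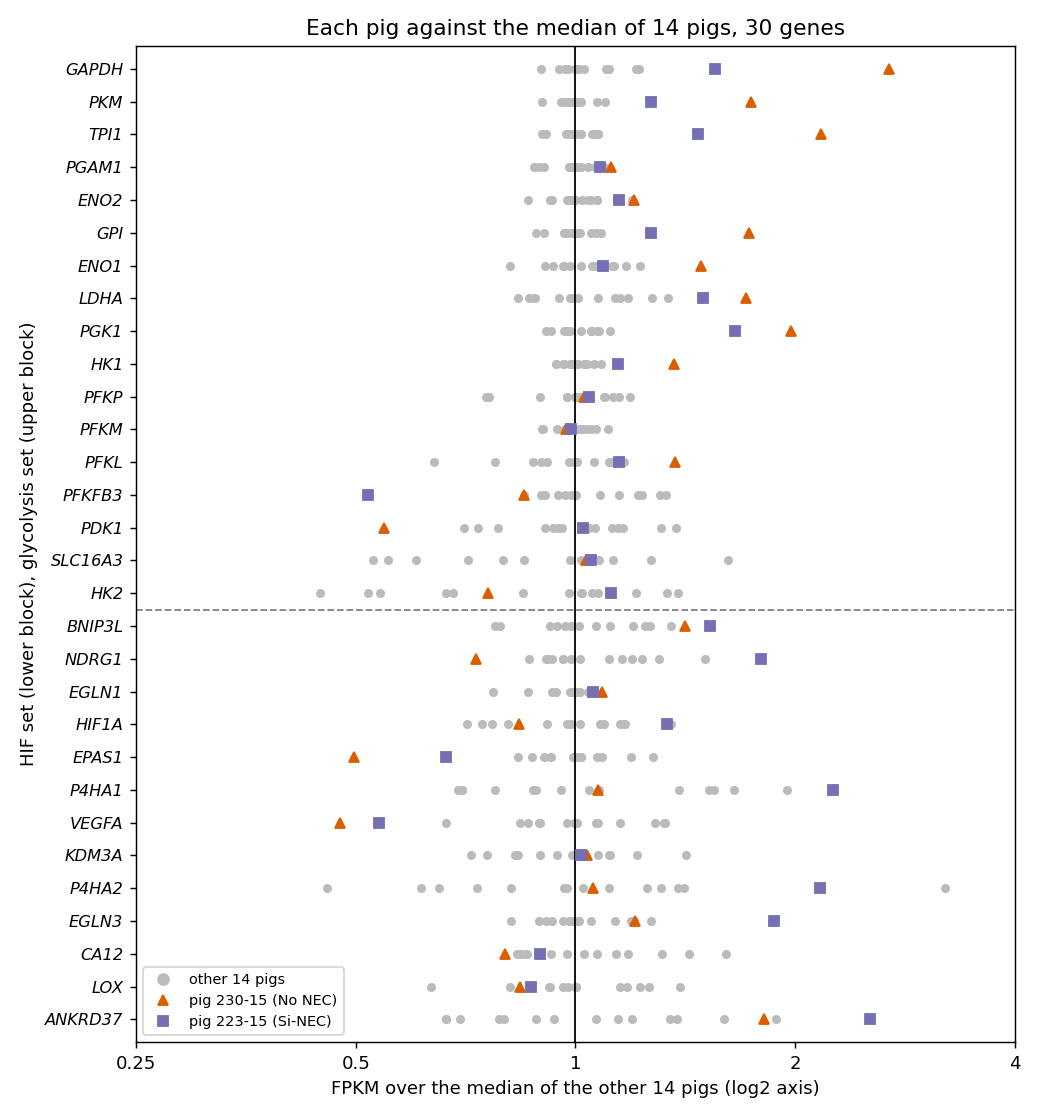
Each row is a gene and each point a pig, placed by its FPKM over the median of the 14 pigs other than 230-15 and 223-15 on a log2 axis, with the glycolysis set above the dashed line and the HIF set below it, each ordered by mean level. The 2 pigs lie to the right for GAPDH (2.69 and 1.55 times), TPI1 (2.17 and 1.47 times) and PGK1 (1.97 and 1.66 times), and to the left for EPAS1 (0.498 and 0.665 times) and VEGFA (0.475 and 0.538 times).

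In the HIF set the same 2 pigs did not lie on one side. In pig 230-15, 2 of 13 genes (15.4%) were above the range of the other 14 pigs and 4 (30.8%) below, against 34.8% and 23.2% of all entries. In pig 223-15, 5 of 13 (38.5%) were above and 2 (15.4%) below, against 32.2% and 18.5%. In both pigs, 1 gene (7.69%) was above and 2 (15.4%) were below, against 23.2% and 12.8% of all entries. EPAS1 and VEGFA, which encodes the vascular growth factor, were below the other 14 pigs in both (EPAS1 at 11.8 and 15.7 FPKM, VEGFA at 8.21 and 9.30 FPKM in 230-15 and 223-15). BNIP3L was above in both, at 80.5 and 87.1 FPKM. NDRG1, a stress-induced gene linked to myelin and lipid handling, went apart, with 20.8 FPKM in 230-15, the lowest of all pigs, and 51.0 FPKM in 223-15, the highest. In pig 223-15 the genes EGLN3 (6.998 FPKM), P4HA1 (36.1 FPKM) and ANKRD37 (3.08 FPKM) were also above the 14 pigs. Markers moved in these pigs as well. The 4 endothelial genes matched summed to 11.4 FPKM in 230-15, the lowest of all pigs, and to 20.1 FPKM in 223-15, and the 5 microglial genes matched to 161 and 176 FPKM against at most 99.9 FPKM elsewhere. The 6 neuronal genes summed to 2899 and 2436 FPKM against at most 2323 FPKM elsewhere, while the 4 hippocampal neuron genes matched summed to 65.2 and 55.9 FPKM against at least 72.6 FPKM elsewhere. The 5 astrocyte genes summed to 1007 FPKM in 230-15 and 1542 FPKM in 223-15, against at most 1159 FPKM elsewhere. The part of these markers in the values above was not tested.

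Without the 2 pigs, the SDs of the glycolysis set were smaller. The median SD of its genes across pigs fell from 0.26 on the log2(FPKM + 0.5) scale over 16 pigs to 0.13 over 14 pigs, while that of the HIF set went from 0.28 to 0.24 and that of all entries from 0.29 to 0.21. HK1 (0.06), PKM (0.07), TPI1 (0.08) and GPI (0.08), with mean levels of 141 to 490 FPKM, had the smallest SDs over the 14 pigs. The largest belonged to P4HA2 (0.60) and P4HA1 (0.50), which encode the catalytic subunits of collagen prolyl 4-hydroxylase. Next came HK2 (0.43) and SLC16A3 (0.42), glycolysis genes with mean levels of only 2.60 and 5.40 FPKM. The SDs were not set against those of entries of like level, so the part of level in them was not tested. P4HA2 ranged 7.01-fold between the highest and the lowest of the 14 pigs, and HK1 1.15-fold.

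Setting Si-NEC against No NEC asks whether gut lesions that include the small intestine go with a hypoxic or glycolytic expression pattern in the hippocampus. None of the 30 genes passed the test at an adjusted p under 0.2 (limma on log2(FPKM + 0.5), Benjamini-Hochberg over all 13590 entries, adjusted p = 1 for each), against 0.00736% of all entries. The study set the same limit on q values of Cuffdiff, a different test that called more genes. Genes it called in Si-NEC, such as S100A8, IER3 and PDK4, did not pass in the limma fit either. The calls of the study and those given here are therefore not alike. At an unadjusted p under 0.05 the test marked 1 of 30, P4HA2, against 2.61% of all entries. By the exact permutation test, 0 of 30 were under 0.05, against 2.62%, and in no gene were the groups separate, as they were for 0.155% of all entries. The median difference, Si-NEC minus No NEC, was 0.06 over the HIF set, where 9 of 13 genes were higher by estimate, and -0.08 over the glycolysis set, where 14 of 17 were lower, beside 0.02 over all entries. Without pigs 230-15 and 223-15 these medians were 0.08, -0.01 and 0.02, with 8 of 13 genes higher in the HIF set and 9 of 17 lower in the glycolysis set. The glycolysis median turned to 0.04 when pig 230-15 alone was left out. A difference on this scale understates the change of genes near 0.5 FPKM.

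Among the HIF genes themselves, HIF1A was at 16.1, 17.4, 18.9, 22.3 and 26.1 FPKM in the No NEC pigs, at 18.3, 22.0, 24.5, 24.8 and 26.4 FPKM in Co-NEC, and at 16.9 to 30.6 FPKM with a median of 24.7 FPKM in the Si-NEC pigs. The ranges overlapped, although 3 Si-NEC pigs lay above every No NEC pig. Si-NEC exceeded No NEC by 0.27 ± 0.18 (SE, log2 scale, exact permutation p = 0.171). EPAS1 was at 11.8, 23.6, 23.6, 25.3 and 30.1 FPKM in No NEC, 21.4, 21.9, 23.4, 24.0 and 24.1 FPKM in Co-NEC, and 15.7 to 28.1 FPKM with a median of 21.2 FPKM in Si-NEC. The No NEC range covered both other groups, and the Si-NEC minus No NEC difference was -0.02 ± 0.22 (SE) with all pigs and -0.15 without 230-15 and 223-15.

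VEGFA was at 8.21, 11.5, 16.8, 17.2 and 23.0 FPKM in the No NEC pigs, at 14.5, 14.9, 17.4, 18.4 and 22.8 FPKM in Co-NEC, and at 9.30 to 22.2 FPKM with a median of 17.002 FPKM in the Si-NEC pigs. All 3 groups covered much the same span. The Si-NEC minus No NEC difference was 0.16 ± 0.27 (SE, log2 scale, 95% interval -0.43 to 0.75, exact permutation p = 0.593), and it was 0.12 without the 2 pigs.

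The collagen prolyl hydroxylases gave the largest differences in the HIF set. P4HA2 was at 1.58, 2.24, 2.82, 3.64 and 4.76 FPKM in No NEC, 2.12, 2.53, 3.36, 4.33 and 4.86 FPKM in Co-NEC, and 3.33 to 11.1 FPKM with a median of 4.18 FPKM in Si-NEC. The 2 highest Si-NEC values, 11.1 FPKM in pig 224-15 and 7.47 FPKM in pig 223-15, lay above all other pigs, and the remaining 4 lay inside the No NEC and Co-NEC ranges. Si-NEC exceeded No NEC by 0.75 ± 0.32 (SE, log2 scale, 95% interval 0.04 to 1.45, limma p = 0.0391, adjusted p = 1, exact permutation p = 0.0714), and by 0.73 without 230-15 and 223-15 (limma p = 0.0731). P4HA1 was at 11.05, 11.2, 11.2, 17.2 and 24.4 FPKM in No NEC, 14.0, 14.1, 16.7, 24.8 and 26.4 FPKM in Co-NEC, and 12.4 to 36.1 FPKM with a median of 19.7 FPKM in Si-NEC. Again pigs 223-15 (36.1 FPKM) and 224-15 (31.1 FPKM) were above every other pig, and Si-NEC exceeded No NEC by 0.54 ± 0.30 (SE, limma p = 0.0981, exact permutation p = 0.149). NDRG1 was at 20.8, 24.5, 28.0, 28.9 and 37.0 FPKM in No NEC and at 25.9 to 51.0 FPKM with a median of 34.5 FPKM in Si-NEC, and its difference of 0.34 ± 0.20 (SE, limma p = 0.107, exact permutation p = 0.143) went to 0.14 without the 2 pigs.

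The 2 pigs highest for P4HA1 and P4HA2 were also high for a sum of neutrophil genes that was mostly S100A8. The study had called S100A8 in Si-NEC from these same pigs. LTF and MMP8 in that sum reached at most 0.973 and 0.442 FPKM in any pig. The 4 neutrophil genes matched, of which S100A8 alone passed the filter and CSF3R was listed at 0 in all pigs, summed to 15.4 FPKM in 223-15 and 22.0 FPKM in 224-15, and reached 25.9 FPKM in 246-15, where P4HA2 was at 3.33 FPKM, the lowest of Si-NEC. Over groups this sum was 2.29 to 25.9 FPKM in Si-NEC, 0.800 to 3.18 FPKM in No NEC and 0.800 to 2.62 FPKM in Co-NEC. Their part in the Si-NEC values was not tested. The count of 1 gene at an unadjusted p under 0.05 went to 0 when any of 540-14, 253-15, 550-14, 223-15 or 224-15 was left out, and to 3 without 547-14 and 4 without 228-15.

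**Figure D2:**
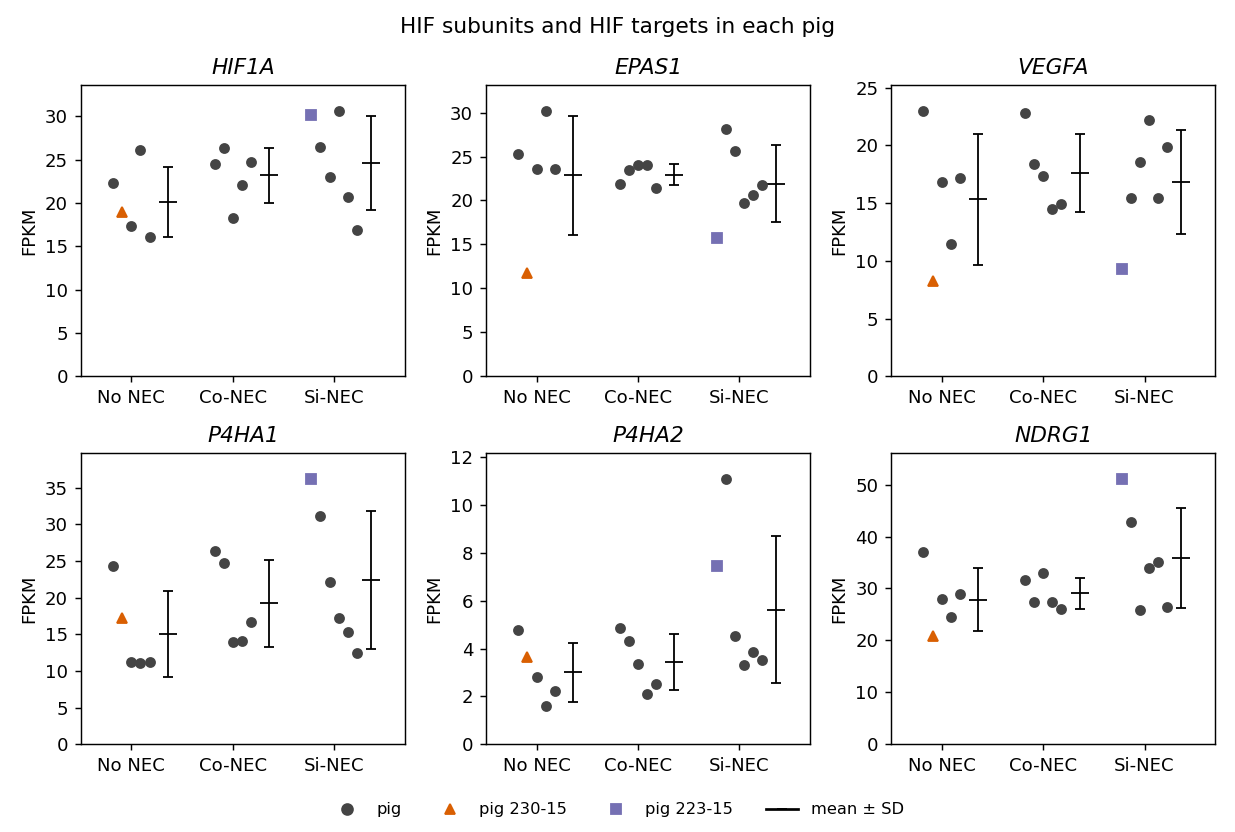
FPKM of HIF1A, EPAS1, VEGFA, P4HA1, P4HA2 and NDRG1 in each pig (points) by group, with the group mean ± SD (bars, n = 5, 5 and 6) and pigs 230-15 and 223-15 marked. The groups overlap for all 6 genes, and the 2 highest P4HA2 values (7.47 and 11.1 FPKM) are both Si-NEC.

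In the glycolysis set, Si-NEC and No NEC differed by less than the spread between pigs. PGK1, which makes the first ATP of the pathway, was at 130, 132, 150, 150 and 282 FPKM in No NEC, 139, 140, 145, 153 and 154 FPKM in Co-NEC, and 138 to 237 FPKM with a median of 145 FPKM in Si-NEC. Outside pigs 230-15 (282 FPKM) and 223-15 (237 FPKM) all values lay between 130 and 159 FPKM. The Si-NEC minus No NEC difference was -0.03 ± 0.21 (SE, log2 scale, exact permutation p = 0.823), and 0.05 without the 2 pigs. LDHA, which reduces pyruvate to lactate, was at 133, 157, 171, 181 and 273 FPKM in No NEC, 152, 158, 184, 188 and 214 FPKM in Co-NEC, and 138 to 239 FPKM with a median of 151 FPKM in Si-NEC, and its difference was -0.09 ± 0.20 (SE, exact permutation p = 0.665), or -0.04 without the 2 pigs. HK2 was at 1.53, 1.88, 2.15, 2.41 and 3.92 FPKM in No NEC, 1.47, 2.78, 2.89, 2.90 and 3.04 FPKM in Co-NEC, and 1.27 to 3.79 FPKM with a median of 3.08 FPKM in Si-NEC. Its highest and lowest pigs of all were a No NEC and a Si-NEC pig, and the difference was 0.17 ± 0.26 (SE, exact permutation p = 0.552), or 0.11 without the 2 pigs.

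The glycolysis genes of smallest p in this comparison were PFKL, PDK1 and ENO1, and none reached 0.05. PFKL, the liver-type phosphofructokinase, was at 18.8, 23.0, 23.2, 24.0 and 28.2 FPKM in No NEC and at 13.1 to 23.6 FPKM with a median of 21.0 FPKM in Si-NEC (difference -0.23 ± 0.16, SE, limma p = 0.173, exact permutation p = 0.197). PDK1, which keeps pyruvate out of the mitochondria by inhibiting pyruvate dehydrogenase, differed by 0.27 ± 0.19 (SE, limma p = 0.174, exact permutation p = 0.197), and by 0.13 without 230-15 and 223-15. ENO1, the ubiquitous enolase, was at 206, 207, 240, 252 and 319 FPKM in No NEC and at 174 to 263 FPKM with a median of 223 FPKM in Si-NEC (difference -0.14 ± 0.14, SE, limma p = 0.347, exact permutation p = 0.342), and the difference was -0.06 without the 2 pigs. For the 14 enzymes of the pathway itself the median difference was -0.09 with all pigs and -0.0005 without the 2 pigs.

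**Figure D3:**
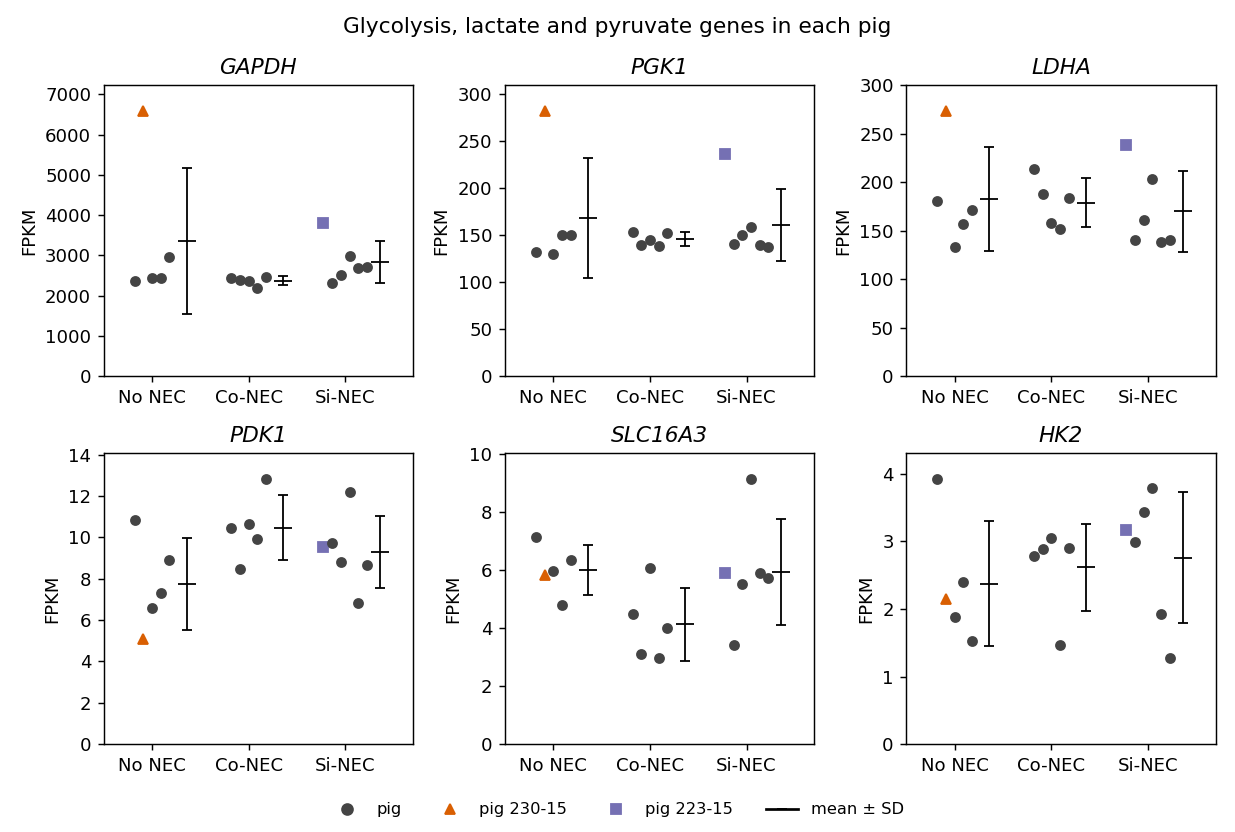
FPKM of GAPDH, PGK1, LDHA, PDK1, SLC16A3 and HK2 in each pig (points) by group, with the group mean ± SD (bars, n = 5, 5 and 6) and pigs 230-15 and 223-15 marked. Pig 230-15 is the highest No NEC pig for GAPDH (6573 FPKM), PGK1 (282 FPKM) and LDHA (273 FPKM) and the lowest of all pigs for PDK1 (5.09 FPKM), and 4 of the 5 Co-NEC pigs lie below every No NEC pig for SLC16A3.

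The comparison of Co-NEC with No NEC asks the same of lesions confined to the colon. It shares the No NEC pigs with the comparison above. None of the 30 genes passed at an adjusted p under 0.2 (limma, smallest adjusted p = 0.812), against 0.00736% of all entries. At an unadjusted p under 0.05 the test marked 2 of 30, 1 in each direction, against 3.44% of all entries. The exact permutation test put 1 of 30 under 0.05, against 4.37%, and no gene separated the groups, against 0.464% of all entries. The median difference, Co-NEC minus No NEC, was 0.08 over the HIF set, with 11 of 13 genes higher by estimate, and -0.11 over the glycolysis set, with 13 of 17 lower, beside 0.01 over all entries. Without pig 230-15 these medians were 0.07, -0.02 and 0.03, with 9 of 13 genes higher and 10 of 17 lower.

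SLC16A3, the monocarboxylate transporter MCT4 that carries lactate out of cells, was at 4.78, 5.83, 5.96, 6.34 and 7.15 FPKM in No NEC, at 2.97, 3.12, 4.02, 4.48 and 6.07 FPKM in Co-NEC, and at 3.41 to 9.12 FPKM with a median of 5.82 FPKM in Si-NEC. Of the 5 Co-NEC pigs, 4 lay below every No NEC pig and the fifth inside their range. The Co-NEC minus No NEC difference was -0.52 ± 0.18 (SE, log2 scale, 95% interval -0.92 to -0.12, limma p = 0.0157, adjusted p = 0.812, exact permutation p = 0.0317), and -0.53 without pig 230-15 (limma p = 0.0222). The smallest exact p that 5 against 5 pigs can give is 0.00794, and 90 such tests were run over genes and comparisons. Another monocarboxylate transporter, SLC16A1, was not among the matched genes.

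PDK1 was at 5.09, 6.56, 7.29, 8.92 and 10.8 FPKM in No NEC, at 8.45, 9.92, 10.5, 10.7 and 12.8 FPKM in Co-NEC, and at 6.85 to 12.2 FPKM with a median of 9.17 FPKM in Si-NEC. The Co-NEC pigs lay in the upper part of the span, with 1 above every No NEC pig. Co-NEC exceeded No NEC by 0.44 ± 0.19 (SE, log2 scale, 95% interval 0.03 to 0.85, limma p = 0.0376, adjusted p = 0.812, exact permutation p = 0.0714), and by 0.31 without pig 230-15 (limma p = 0.0747). PFKL, at 15.9, 18.0, 20.5, 20.7 and 22.9 FPKM in Co-NEC, differed by -0.25 ± 0.13 (SE, limma p = 0.0796, exact permutation p = 0.0794), and by -0.18 without pig 230-15 (limma p = 0.147). PGK1 differed by -0.14 ± 0.19 (SE), LDHA by 0.0008 ± 0.18 (SE) and HK2 by 0.14 ± 0.23 (SE), and without pig 230-15 they differed by 0.06, 0.16 and 0.12.

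Within the HIF set, the genes of smallest p between Co-NEC and No NEC were P4HA1, HIF1A and VEGFA. P4HA1 differed by 0.37 ± 0.26 (SE, log2 scale, limma p = 0.189, exact permutation p = 0.214), with 2 Co-NEC pigs above every No NEC pig. HIF1A differed by 0.21 ± 0.15 (SE, limma p = 0.192, exact permutation p = 0.230) and VEGFA by 0.26 ± 0.25 (SE, limma p = 0.321, exact permutation p = 0.381), the latter falling to 0.06 without pig 230-15. EPAS1 differed by 0.07 ± 0.21 (SE), and by -0.15 without that pig. The count of 2 genes at an unadjusted p under 0.05 went to 1 without any of 225-15, 545-14, 552-14, 540-14, 230-15 or 253-15, and to 4 without 228-15.

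The comparison of Si-NEC with Co-NEC sets lesions that include the small intestine against lesions of the colon alone, and it shares its pigs with both comparisons above. Place and extent of the lesions cannot be told apart in it, since Si-NEC pigs may have had colon lesions as well. None of the 30 genes passed at an adjusted p under 0.2 (limma, smallest adjusted p = 0.867), against 0.0147% of all entries, and 0 of 30 had an unadjusted p under 0.05, against 5.64% (3.25% higher and 2.4% lower in Si-NEC). The exact permutation test put 2 of 30 under 0.05, GAPDH and PFKM, against 5.96% of all entries, and no gene separated the groups, against 0.545% of all entries. The median difference, Si-NEC minus Co-NEC, was 0.04 over the HIF set, with 9 of 13 genes higher by estimate, and 0.04 over the glycolysis set, with 13 of 17 higher, beside 0.00005 over all entries. Without pig 223-15 these medians were 0.002, 0.009 and -0.01, with 8 of 13 and 9 of 17 genes higher. The HIF median turned to -0.01 without pig 255-15.

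PFKM, the muscle-type phosphofructokinase, was at 106, 109, 110, 113 and 119 FPKM in the Co-NEC pigs, at 96.4 to 106 FPKM with a median of 104 FPKM in the Si-NEC pigs, and at 96.9, 104, 108, 111 and 114 FPKM in the No NEC pigs. Of the 6 Si-NEC pigs, 4 lay below every Co-NEC pig, and the other 2 met the lower end of that range. Si-NEC was lower by estimate, by -0.11 ± 0.06 (SE, log2 scale, 95% interval -0.25 to 0.03). The exact permutation p was 0.00649 and the limma p, which draws the SD of each gene towards that of genes of like level, was 0.110 (adjusted p = 0.867). The smallest exact p that 6 against 5 pigs can give is 0.00216. Without pig 223-15 the difference was -0.12 (exact permutation p = 0.0159, limma p = 0.0394).

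GAPDH exceeded its Co-NEC level in Si-NEC by 0.24 ± 0.14 (SE, log2 scale, exact permutation p = 0.0411, limma p = 0.104), and by 0.15 without pig 223-15 (exact permutation p = 0.0714). SLC16A3 differed by 0.47 ± 0.22 (SE, exact permutation p = 0.0844, limma p = 0.0560). Of the HIF set, P4HA2 differed by 0.56 ± 0.30 (SE, exact permutation p = 0.139) and NDRG1, at 26.1, 27.3, 27.4, 31.6 and 33.0 FPKM in Co-NEC, by 0.26 ± 0.17 (SE, exact permutation p = 0.162), or 0.15 without pig 223-15. ANKRD37 was at 0.956, 1.08, 1.14, 1.39 and 1.64 FPKM in Co-NEC, 0.809, 0.845, 1.95, 2.21 and 2.29 FPKM in No NEC, and 0.808 to 3.08 FPKM with a median of 1.38 FPKM in Si-NEC. Its difference of 0.17 ± 0.23 (SE) went to -0.009 without pig 223-15. VEGFA differed by -0.10 ± 0.20 (SE), HIF1A by 0.07 ± 0.16 (SE), EPAS1 by -0.09 ± 0.13 (SE), HK2 by 0.03 ± 0.24 (SE), PGK1 by 0.11 ± 0.13 (SE), LDHA by -0.09 ± 0.16 (SE) and PDK1 by -0.17 ± 0.14 (SE). Without pig 223-15 these 7 differences were 0.06, 0.002, 0.002, -0.01, -0.007, -0.20 and -0.18. The count of 0 genes at an unadjusted limma p under 0.05 went to 1 without any of 255-15, 223-15 or 224-15.

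**Figure D4:**
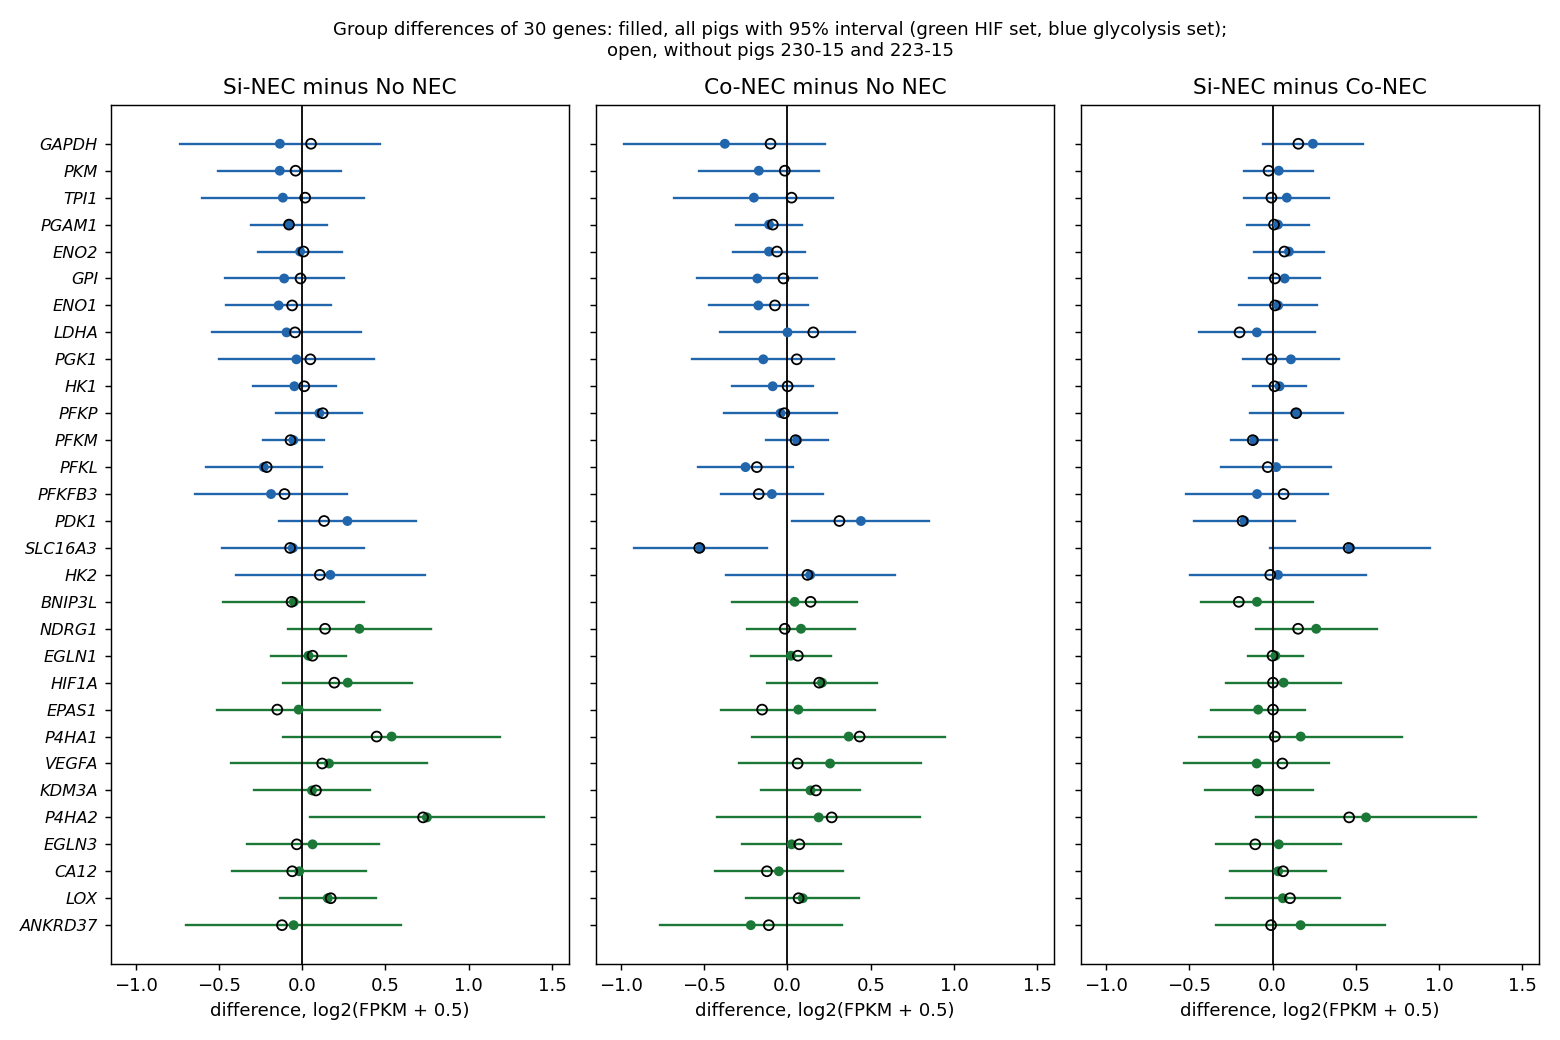
Differences of the 30 genes on the log2(FPKM + 0.5) scale in the 3 comparisons, as filled points with 95% intervals (green for the HIF set, blue for the glycolysis set), and as open circles without pigs 230-15 and 223-15. Intervals clear of 0 belong to P4HA2 in Si-NEC minus No NEC (0.04 to 1.45) and to SLC16A3 (-0.92 to -0.12) and PDK1 (0.03 to 0.85) in Co-NEC minus No NEC.

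Ratios between related genes within a pig were taken on FPKM + 0.5. They depend on how pigs were scaled to each other only through the added 0.5 FPKM, which counts for low genes such as HK2. Both genes were matched for 4 of the 8 pairs considered, which gave 12 tests over the 3 comparisons. The mean log2 ratio of HK2 to HK1 was -5.71 ± 0.50, -5.48 ± 0.34 and -5.49 ± 0.47 in the No NEC, Co-NEC and Si-NEC pigs (SD over 5, 5 and 6 pigs), and that of EPAS1 to HIF1A was 0.14 ± 0.47, -0.01 ± 0.25 and -0.16 ± 0.50 in the same order. For the enolases, ENO1 to ENO2, it was -0.50 ± 0.15, -0.57 ± 0.09 and -0.63 ± 0.14, with 4 of the 6 Si-NEC pigs below every No NEC pig (difference -0.13, exact permutation p = 0.167). For PFKP to PFKM it was 0.01 ± 0.25, -0.09 ± 0.28 and 0.16 ± 0.12, and the smallest p of the 12 belonged to Si-NEC minus Co-NEC (0.26, exact permutation p = 0.0801, adjusted over the 12 tests 0.641). None of the ratio differences passed the test, and the adjusted p of the other 11 was 0.641 or 0.985.

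For 3 pairs of genes, levels were correlated across pigs on the log2(FPKM + 0.5) scale, with permutation p-values adjusted over the pairs. PGK1 and LDHA, both glycolytic and both HIF targets, varied together over the 14 pigs other than 230-15 and 223-15 with Pearson's r = 0.624 (adjusted permutation p = 0.0542) and Spearman's rho = 0.657 (adjusted permutation p = 0.0407). The 2 pigs lie apart from the rest at the upper end of both genes. With them r was 0.824 and rho 0.771 over 16 pigs (adjusted permutation p = 9e-05 and 0.00198), so part of this r rests on them. The pig labels end in 14 or 15, and within these sets r was 0.883 over 6 pigs (adjusted exact permutation p = 0.0229) and 0.830 over 10 pigs, the latter including both pigs (adjusted permutation p = 0.00201). The rho was 0.771 (adjusted exact permutation p = 0.154) and 0.806 (adjusted permutation p = 0.0214) in the same sets.

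**Figure D5:**
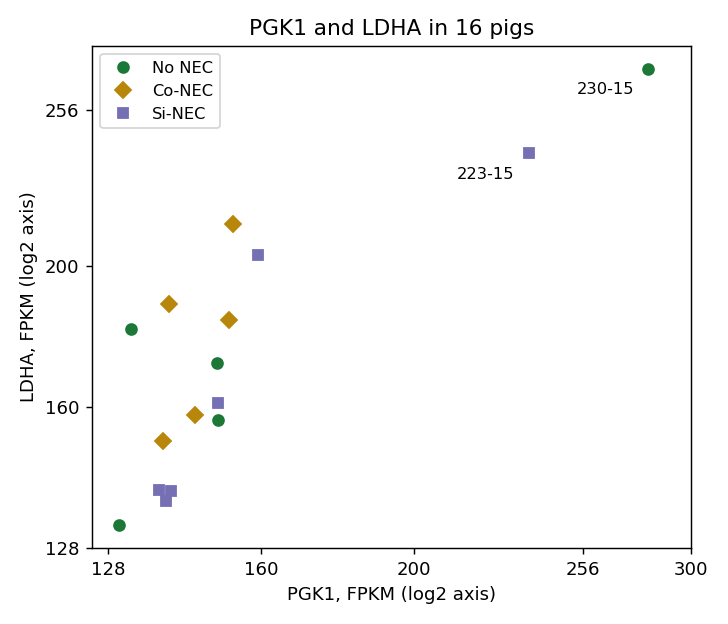
LDHA against PGK1 in 16 pigs, both as FPKM on log2 axes, with symbols by group. Pigs 230-15 (282 and 273 FPKM of PGK1 and LDHA) and 223-15 (237 and 239 FPKM) lie at the upper right, and the other 14 pigs lie between 130 and 159 FPKM of PGK1.

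EPAS1 and the endothelial gene PECAM1 had r = 0.357 and rho = 0.312 over 16 pigs (adjusted permutation p = 0.264 and 0.359), and r = 0.298 without 230-15 and 223-15 (adjusted permutation p = 0.436). Within labels ending in 14 and 15 r was 0.715 and 0.397, and rho 0.371 and 0.285 (adjusted permutation p of at least 0.165 for each). ENO2 and the neuronal gene SYT1 had r = -0.103 and rho = -0.171 over 16 pigs (adjusted permutation p = 0.704 and 0.526), and r = -0.226 without 230-15 and 539-14 (adjusted permutation p = 0.436). Within the 6 pigs of labels ending in 14 r was -0.906 (adjusted exact permutation p = 0.0229) and rho -0.771 (adjusted exact permutation p = 0.154), and within the 10 ending in 15 they were 0.406 and 0.176 (adjusted permutation p = 0.262 and 0.631). PECAM1 and SYT1 took the place of CLDN5 and SNAP25, which were not matched, as the first matched gene of each marker list.

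Other genes of the pathway were read from lists chosen by function, and that of further HIF targets held genes the study had already called in Si-NEC. Listed were 13 genes that regulate HIF, 24 HIF targets and 32 genes of sugar metabolism, of which 6, 12 and 21 were tested. The rest were not matched, had several entries or were under the filter. Among the targets not matched were SLC2A1, HMOX1, EDN1 and TXNIP. Of 6 further genes that regulate HIF, 0 had an unadjusted limma p under 0.05 in Si-NEC against No NEC or in Co-NEC against No NEC, and 1, ELOB, did in Si-NEC against Co-NEC, where the shares of all entries were 2.61%, 3.44% and 5.64%. ELOB encodes elongin B, part of the ubiquitin ligase that removes HIF alpha. It was at 457, 532, 541, 546 and 605 FPKM in Co-NEC, 520, 533, 613, 661 and 1361 FPKM in No NEC, and 538 to 969 FPKM with a median of 664 FPKM in Si-NEC (Si-NEC minus Co-NEC 0.37 ± 0.14, SE, limma p = 0.0258, exact permutation p = 0.0195, adjusted p = 0.864). The next in that comparison, the inhibitory HIF3A, differed by 0.13 ± 0.10 (SE), or 0.06 without pig 223-15. In Si-NEC minus No NEC the smallest p belonged to the coactivator CREBBP (0.09 ± 0.18, SE) and HIF3A (-0.06 ± 0.14, SE, or -0.008 without 230-15 and 223-15), and in Co-NEC minus No NEC to ELOB (-0.36 ± 0.24, SE, or -0.12 without pig 230-15) and HIF3A (-0.19 ± 0.14, SE, or -0.07 without it).

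Of 12 further HIF targets, 3 had an unadjusted limma p under 0.05 in Si-NEC against No NEC and 2 in Si-NEC against Co-NEC, all higher in Si-NEC, and 0 did in Co-NEC against No NEC. Over all entries these shares were 2.61% (1.59% higher), 5.64% (3.25% higher) and 3.44%. None passed at an adjusted p under 0.2. ADM, the vasodilator adrenomedullin, was at 0.364, 0.659, 0.752, 0.836 and 1.88 FPKM in No NEC, 0.322, 0.461, 0.951, 1.32 and 2.34 FPKM in Co-NEC, and 1.02 to 9.72 FPKM with a median of 2.71 FPKM in Si-NEC. Si-NEC exceeded No NEC by 1.38 ± 0.41 (SE, log2 scale, limma p = 0.00588, exact permutation p = 0.0130) and Co-NEC by 1.26 ± 0.44 (SE, limma p = 0.0141, exact permutation p = 0.0303). IER3, an immediate early survival gene, was at 0.0929, 0.912, 1.12, 1.31 and 1.76 FPKM in No NEC, 0.494, 0.881, 1.15, 1.46 and 2.35 FPKM in Co-NEC, and 1.59 to 11.3 FPKM with a median of 2.48 FPKM in Si-NEC (1.52 ± 0.48, SE, limma p = 0.00837, exact permutation p = 0.00866, over No NEC and 1.28 ± 0.44, SE, limma p = 0.0139, exact permutation p = 0.0216, over Co-NEC). Most Si-NEC pigs lay above most others for both genes, with overlap at the low end. PDK4, a pyruvate dehydrogenase kinase listed here because the study named it among genes associated with hypoxia, was the third (0.97 ± 0.41, SE, limma p = 0.0344, exact permutation p = 0.0671). In Co-NEC minus No NEC the smallest p belonged to PDK4 (0.43 ± 0.23, SE) and the clock gene RORA (0.27 ± 0.17, SE). IER3, ADM and PDK4 were picked out by the study from these same pigs, so neither their direction nor these counts are independent evidence. For IER3 and PDK4 the study also reported higher levels in Si-NEC by quantitative PCR in a larger set of pigs.

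Of 21 further genes of sugar metabolism, 1, LDHD, had an unadjusted limma p under 0.05 in Si-NEC against No NEC and in Co-NEC against No NEC, beside 2.61% and 3.44% of all entries, and none passed at an adjusted p under 0.2 in any comparison. LDHD, which oxidizes D-lactate, was at 2.61, 3.21, 3.68, 4.07 and 4.15 FPKM in No NEC, 1.87, 1.92, 2.04, 2.33 and 2.69 FPKM in Co-NEC, and 1.15 to 2.52 FPKM with a median of 1.87 FPKM in Si-NEC. All Si-NEC pigs lay below all No NEC pigs, as in 0.0368% of all entries, and 4 of the 5 Co-NEC pigs lay below every No NEC pig. The difference from No NEC was -0.85 ± 0.19 in Si-NEC (SE, log2 scale, limma p = 0.00076, adjusted p = 1, exact permutation p = 0.00433) and -0.59 ± 0.15 in Co-NEC (SE, limma p = 0.00196, exact permutation p = 0.0159, adjusted p = 0.812). Next in these comparisons came ENO3, the muscle enolase (-0.34 ± 0.17, SE), for Si-NEC and PGAM2, the muscle mutase (-0.41 ± 0.20, SE, or -0.25 without pig 230-15), for Co-NEC. In Si-NEC minus Co-NEC, TALDO1 of the pentose phosphate pathway differed by 0.23 ± 0.13 (SE), or 0.14 without pig 223-15.

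Whether group differences depended on sex was tested as an interaction. For Si-NEC against No NEC, 1 of the 30 genes, BNIP3L, had an unadjusted interaction p under 0.05 against 10.8% of all entries, and the smallest adjusted p of the 30 was 0.439 (limma). The Si-NEC minus No NEC difference of BNIP3L was 0.47 in females and -0.47 in males, with 2 or 3 pigs of each sex in a group. Its 2 highest pigs were 223-15, a Si-NEC female (87.1 FPKM), and 230-15, a No NEC male (80.5 FPKM). The interaction was not fitted without them. For Co-NEC against No NEC, 0 of the 30 had an unadjusted interaction p under 0.05, against 2.47% of all entries, and the smallest adjusted p was 0.926 (limma).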

How the data were processed

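Hippocampal RNA-seq values of 16 pigs were read from 1 deposited table. Per the labels' processing notes and the study's methods, the authors trimmed the reads, aligned them to Sscrofa10.2 with TopHat2 2.1.1 and estimated FPKM per gene with Cufflinks 2.2.1, while any further scaling between pigs is not given in the sources used here. Depth per pig is unknown, since at most 22.0% of low values shared 1 ratio between a pair of pigs and whole reads could not be recovered, so the number of pigs limits precision. A listed 0 can be a failed estimate, since 1 or more pigs had a 0 in 49 of the 4038 entries that averaged over 20 FPKM. The 24594 lines held 1779 identical ones, which were dropped to leave 22815 entries, and 13590 with a mean of at least 0.5 FPKM were tested. Symbols came from a table of gene IDs, and 9068 tested entries had one. No genome of the authors' build was used, so no coordinates are given and promoter motifs were not analysed here.

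Each pair of groups was fitted on log2(FPKM + 0.5) with limma 3.58.1 in R 4.3.3 (two-sided, eBayes with trend), adjusting p by Benjamini-Hochberg over all tested entries at 0.2. The fit was tested on simulated data. Single genes also had two-sided exact permutation tests, and correlations 100000 permutations (numpy 2.4.6, scipy 1.17.1). Any of the 30 genes could be named with its level, and the fit was given, with pig values where the text turns on them, for VEGFA, HIF1A, EPAS1, HK2, PGK1, LDHA and PDK1, for the 3 genes of smallest p per set and comparison, and for the 2 of smallest p per further list. BNIP3L was also singled out after its values were seen. The genes and lists were chosen with earlier results of these data known. Alternatives covered the pseudocount, filters, rescaling, covariates, eBayes settings, array weights and leaving out pigs. The result of 1 further gene is not reported here.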

Additional observations from a re-analysis of the deposited data

Results flagged for a closer look

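Within groups of 5 or 6 pigs, the highest or lowest pig was set against the rest for each of the 30 genes. In 14 of 90 groups a pig lay farther from its nearest neighbour than Dixon's 95% critical value allows. The share of all entries flagged by this rule was not computed, so the count is not read as particular to these genes. Over all entries, pig 230-15 was the highest of all pigs in 26.3% and the lowest in 19.9%, and pig 223-15 in 17.5% and 9.07%. Pig 230-15 accounted for 8 of the 14, all in No NEC, being highest for HK1 (185.5 FPKM), GPI (506.7 FPKM), TPI1 (917.2 FPKM), GAPDH (6573 FPKM), PGK1 (281.8 FPKM), ENO2 (391.5 FPKM) and PKM (802.0 FPKM) and lowest for EPAS1 (11.76 FPKM). Pig 223-15 accounted for 3, all in Si-NEC, being highest for EGLN3 (6.998 FPKM), TPI1 (622.4 FPKM) and PGK1 (236.6 FPKM). In Co-NEC, pig 545-14 was lowest for HK2 (1.474 FPKM) and PGAM1 (302.7 FPKM), and in No NEC pig 253-15 was lowest for EGLN1 (22.24 FPKM). The flags of a pig are not independent of each other, as they come from the same library.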

How the results depend on the processing

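None of the 30 genes passed at an adjusted p under 0.2 in any comparison under any alternative. Counts over all entries were small (1, 1 and 2 entries in Si-NEC against No NEC, Co-NEC against No NEC and Si-NEC against Co-NEC), and they moved. The first went to 2 with the label number as a covariate and to 4 with array weights, the second to 4 without a filter on low values. The third went to 201 with array weights, and to 1 with a pseudocount of 0.1, without the filter, with all 3 groups in one fit, with sex or the label number as a covariate, at an adjusted p under 0.05, and without pigs 230-15 and 223-15. Leaving out 1 pig gave 1 to 3, 1 to 2 and 1 to 12 entries. The number of the 30 genes at an unadjusted p under 0.05 (1, 2 and 0) was 0 in the first comparison without the 2 pigs. It was 1 in the second after rescaling by the median of ratios, with array weights and without the 2 pigs. In the third it was 3 with array weights, and 1 without the filter, with all groups in one fit and without the 2 pigs. Leaving out 1 pig gave 0 to 4, 1 to 4 and 0 to 1 genes. The cause was not tested.

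Signs of small differences turned. Leaving out 1 pig, the median over the glycolysis set ran from -0.129 to 0.0432 in Si-NEC minus No NEC, above 0 without 230-15 alone, and that over the HIF set from -0.0125 to 0.0879 in Si-NEC minus Co-NEC, below 0 without 255-15 alone. With array weights, PGK1 was 0.0319 in Si-NEC minus No NEC, EPAS1 -0.12 and PGK1 0.0186 in Co-NEC minus No NEC, and VEGFA 0.0466, HIF1A -0.05145 and EPAS1 0.0541 in Si-NEC minus Co-NEC. Without pigs 230-15 and 223-15, PGK1 was 0.0493 in the first, EPAS1 -0.15 and PGK1 0.0563 in the second, and VEGFA 0.0588, EPAS1 0.00235, HK2 -0.0142, PGK1 -0.00696, ANKRD37 -0.0093 and the log2 ratio of EPAS1 to HIF1A 3.76e-05 in the third. HK2 in the third was -0.0127 with sex and -0.0111 with the label number as a covariate, and LDHA in the second was -0.004855 after rescaling. Leaving out 1 pig, Si-NEC minus No NEC ran from -0.0342 to 0.323 for VEGFA, -0.238 to 0.0922 for EPAS1, -0.151 to 0.166 for PGK1 and -0.198 to 0.0612 for LDHA. Co-NEC minus No NEC ran from -0.152 to 0.179 for EPAS1, -0.222 to 0.0563 for PGK1 and -0.103 to 0.156 for LDHA. Si-NEC minus Co-NEC ran from -0.184 to 0.0588 for VEGFA, -0.0149 to 0.167 for HIF1A, -0.162 to 0.00235 for EPAS1, -0.125 to 0.196 for HK2, -0.00696 to 0.149 for PGK1, -0.0093 to 0.282 for ANKRD37, -0.160 to 0.137 for the ratio of HK2 to HK1 and -0.256 to 3.76e-05 for that of EPAS1 to HIF1A.

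The counts over the 30 genes alone, and PECAM1 and SYT1 in the correlations, were added after seeing the data. No paired analysis was possible because the labels give no replicate numbers shared between groups. With 5 or 6 pigs a group and unknown depth, precision is limited to the intervals given.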
